A study of Mus musculus with 59 samples.

Results

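Neurod1, Eomes, Insm1, Nhlh1, Sox4 and Sox11, 6 transcription factor genes of newborn neurons, were examined together with Dcx, Dpysl3 and Cd24a, 3 genes for structural and surface proteins of young neurons. They were taken by symbol and are 9 of the 20689 genes measured, and all 9 were found. The data are RNA profiles of 59 single mouse cells labelled chemical-induced neurons, from a study that used chemicals to make neurons from astrocytes in vivo. Each cell's content was drawn into a patch pipette. The age given for every cell is 12 weeks. The labels put them in a sole group and give no genotype, strain, brain region, chemical agent or animal, so they count here as 1 sample. No untreated cells, astrocytes or ordinary neurons were analysed here, so the values describe these cells and no comparison between conditions was made.

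Newborn neurons arise in a cascade. Progenitors held by Notch signalling and Sox2 turn on proneural factors, intermediate progenitors of glutamatergic lineages carry Eomes (also called Tbr2), and Neurod1, Insm1 and Nhlh1 act as cells leave the cycle and begin to differentiate. Sox4 and Sox11, closely related SoxC proteins, then turn on neuronal genes such as Dcx, whose product binds microtubules in migrating neuroblasts. These genes normally fade as a neuron matures, while genes of synaptic release and of the neurofilament cytoskeleton rise. In the adult brain they remain mainly in the zones that still make neurons. Some also serve other cells: Cd24a is a surface protein of ependymal cells, Dpysl3 is present in oligodendrocyte precursors, and Eomes acts in T and natural killer cells.

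The 250 bases before the RefSeq transcript start (build GRCm38.p6) were read for 6 of the 9 genes: Neurod1, Eomes, Nhlh1, Sox4, Sox11 and Dcx, the last with 2 starts. Both strands were searched for CAGCTG and CAGATG, E-box forms that proneural factors can bind, and for ACAAAG and ACAATG, core motifs of SOX proteins. No matches overlapped each other in these windows. The 3 windows with CAGCTG or CAGATG are printed here 5′ to 3′ on the minus strand, with the match in capitals, because they include both SoxC genes. Other E-box forms were not searched and are not marked. The Sox11 window is chr12:27342719-27342968, the Sox4 window chr13:28953700-28953949 and the Nhlh1 window chr1:172057597-172057846.
Sox11: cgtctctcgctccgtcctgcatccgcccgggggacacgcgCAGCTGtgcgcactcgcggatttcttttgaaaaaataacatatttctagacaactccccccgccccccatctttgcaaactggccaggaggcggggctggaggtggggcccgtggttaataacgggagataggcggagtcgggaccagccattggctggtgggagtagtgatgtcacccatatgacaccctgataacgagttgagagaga
Sox4: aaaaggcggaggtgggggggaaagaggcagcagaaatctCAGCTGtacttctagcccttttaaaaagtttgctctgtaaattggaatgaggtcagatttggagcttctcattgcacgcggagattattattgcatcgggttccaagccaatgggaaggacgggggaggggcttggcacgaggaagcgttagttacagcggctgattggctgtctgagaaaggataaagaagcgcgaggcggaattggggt
Nhlh1: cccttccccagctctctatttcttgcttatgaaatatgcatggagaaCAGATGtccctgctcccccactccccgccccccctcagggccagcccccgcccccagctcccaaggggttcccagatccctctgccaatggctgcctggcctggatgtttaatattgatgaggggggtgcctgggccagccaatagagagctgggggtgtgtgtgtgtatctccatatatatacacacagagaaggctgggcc
CAGCTG lay at bases -210 to -205 from the start in Sox11 and at -211 to -206 in Sox4, and CAGATG lay at -203 to -198 in Nhlh1. At 1 of the Dcx starts, ACAAAG lay at bases -8 to -3. The windows of Neurod1, Eomes and the other Dcx start held 0 of the 4 motifs. Among 12395 promoter windows of the same length, 12.5% held CAGCTG, 10.8% CAGATG, 12.6% ACAAAG and 6.53% ACAATG, and 35.7% held at least 1 of the 4. A match describes the letters and is not a binding site.

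Most of the 9 genes were found in few cells. A gene was called detected at an FPKM of 1 or more (FPKM counts fragments relative to exon length and to the mapped fragments of the cell, so levels can be set side by side between genes). Cd24a was detected in 14 of 59 cells (23.7%, exact Clopper-Pearson 95% interval 13.6 to 36.6%), Sox11 in 13 (22.0%, 12.3 to 34.7%) and Dpysl3 in 12 (20.3%, 11.0 to 32.8%). Sox4 was detected in 9 cells (15.3%, 7.22 to 27.0%), Dcx in 6 (10.2%, 3.82 to 20.8%) and Neurod1 in 5 (8.47%, 2.81 to 18.7%). Eomes was detected in 3 cells (5.08%, 1.06 to 14.1%), Insm1 in 2 (3.39%, 0.413 to 11.7%) and Nhlh1 in 1 (1.69%, 0.0429 to 9.09%). The intervals cover counting error over cells only, and those of neighbours in this order overlap. Of the 9 genes, 3 were detected in at least 12 cells, against 38.9% of all genes, and their median was 6 cells against 7 for all genes. Read against that background, the share is close to what an ordinary gene shows in these cells.

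Depth bears on each of these counts. From the spacing of the FPKM values, 29043 to 2950402 fragments were recovered per cell (median 912996), and 475 to 10310 genes were detected (median 3984). At the median depth an FPKM of 1 corresponded to 11.5 fragments for Dcx, which has the longest exon sum of the 9, to 7.59 for Sox11, 2.49 for Neurod1 and 1.66 for Cd24a. Where a gene was at 0, a count of 0 still allows up to 3 fragments. That limit exceeded an FPKM of 1 in 31 of the 52 cells at 0 for Neurod1, 35 of 45 for Cd24a and 36 of 58 for Nhlh1. It did so in 30 of 55 for Insm1, 24 of 56 for Eomes, 18 of 45 for Sox4 and 17 of 42 for Dpysl3. For Dcx and Sox11 it was 11 of 50 and 14 of 43. In those cells a level between the threshold and the limit could not be told from 0. The counts of Neurod1, Cd24a, Nhlh1 and Insm1 cells are therefore less firm than those of Dcx and Sox11. The labels name no molecular identifiers, so fragments need not be independent molecules and these limits cover counting error only.

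**Figure D1:**
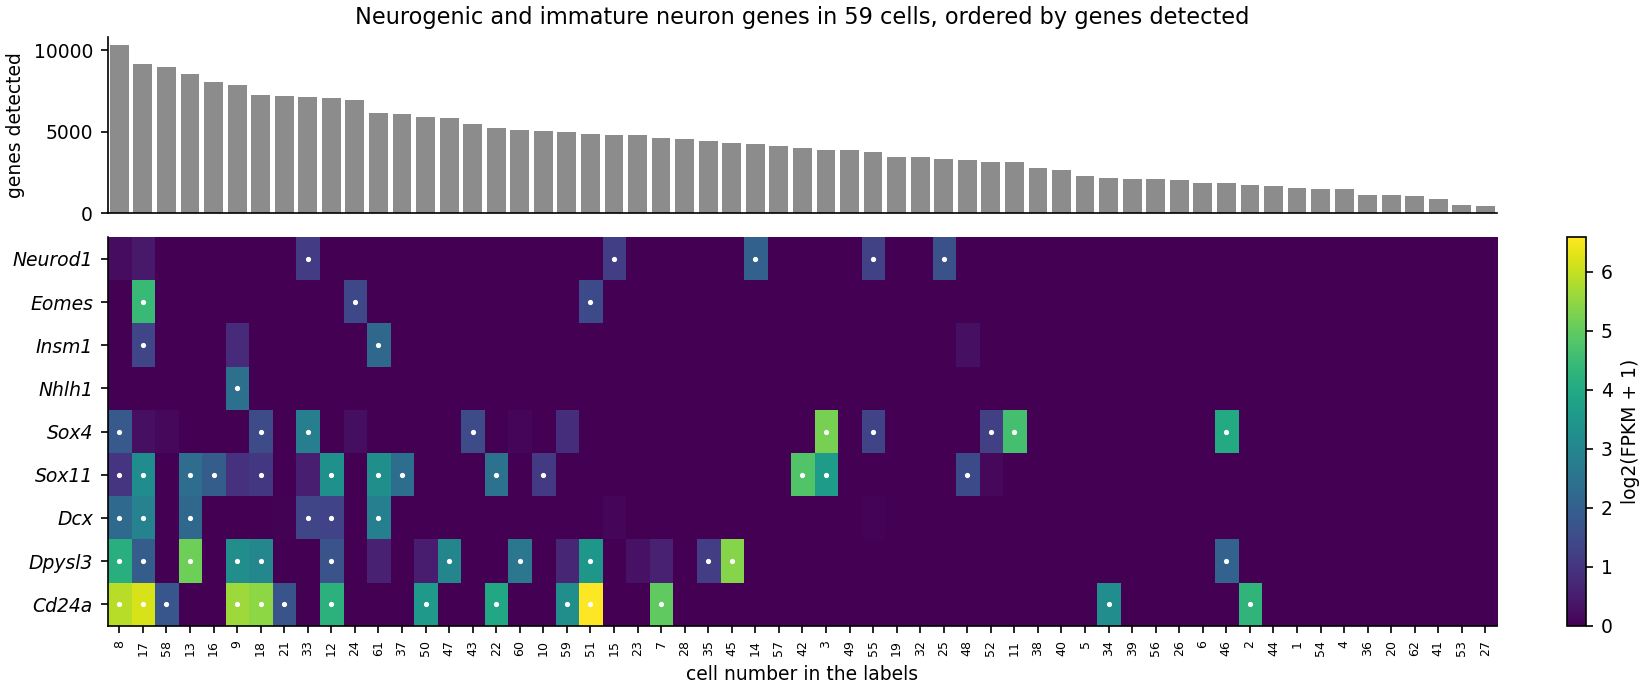
Upper panel: genes detected per cell at an FPKM of 1 or more, with cells in falling order from 10310 to 475. Lower panel: log2(FPKM + 1) of the 9 genes in the same 59 cells as colour, with a white dot at an FPKM of 1 or more; dots gather in the cells on the left, and cells 17 and 8 carry 6 and 5 of the genes.

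Neurod1, a basic helix-loop-helix factor that drives neuronal differentiation, was low wherever it was found. It reached 3.10 FPKM in cell 14, 2.08 in cell 25, 1.48 in cell 55, 1.35 in cell 15 and 1.25 in cell 33. These values rest on 9, 6, 6, 7 and 7 fragments, and cells 8 and 17 held 1 fragment each at an FPKM below 1. In 0 of 59 cells did Neurod1 reach 10 fragments or an FPKM of 5. The gene (chr2:79452521-79456751, minus strand, 2 exons, GENCODE M21) overlaps Cerkl on the same strand and the non-coding gene Gm26755 on the opposite strand. Cerkl was at 0 in 4 of these 5 cells and at 0.0993 FPKM in cell 15. No value of Gm26755 is given here, so its part in the Neurod1 values was not tested.

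The 5 Neurod1 cells were unlike each other. Cell 14 also had the related factors of cortical glutamatergic neurons Neurod6 (106 FPKM) and Neurod2 (74.0 FPKM), the cortical factor Tbr1 (11.7 FPKM) and the vesicular glutamate transporter Slc17a7 (29.2 FPKM), with Gad1, an enzyme that makes GABA, at 1.73 FPKM. Cell 33 carried Slc17a6 (26.1 FPKM), another glutamate transporter, and Neurod2 (17.9 FPKM). Glial genes were present in both, with C1qb at 751 FPKM in cell 14 and 896 FPKM in cell 33. Cell 15 had high microglial genes, C1qb at 5251 FPKM and Csf1r at 346 FPKM, beside the synaptic fusion gene Snap25 at 17.5 FPKM. All 5 cells had at least 50% of the microglia list, and 4 of them at least 50% of the oligodendrocyte list. Cell 25 had 45.8% of a list of 24 mature neuronal genes and 9 of 10 oligodendrocyte genes, and cell 55 had the myelin gene Mbp at 984 FPKM against Snap25 at 61.2 FPKM. Whether RNA of the glial cells gave part of the Neurod1 values was not tested.

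Eomes was detected in cell 17 at 21.0 FPKM (89 fragments), in cell 51 at 1.77 FPKM (10 fragments) and in cell 24 at 1.71 FPKM (16 fragments). Cell 17 also held the calcium-binding protein gene Calb2 at 877 FPKM, Slc17a6 at 28.8 FPKM, and the homeobox genes Lhx1 (25.0 FPKM) and Lhx5 (18.6 FPKM). Nhlh2, the close relative of Nhlh1, was detected in 1 of 59 cells, which was this cell, at 12.8 FPKM. The GABA genes Gad1 (79.6 FPKM) and Gad2 (115 FPKM) were present in the same cell, with Snap25 at 322 FPKM and the neuronal nuclear marker Rbfox3 at 41.3 FPKM.

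The other Eomes cells had different company. Cell 51 had the T cell receptor genes Cd3e at 49.0 FPKM and Cd3g at 44.5 FPKM, the highest of the 59 cells for each, and C1qb at 1628 FPKM, while Nkg7 and Tbx21, genes of cytotoxic lymphocytes, were at 0. It also had Lhx5 at 26.2 FPKM. Cell 24 had Calb2 at 322 FPKM, the GABAergic lineage factor Dlx5 at 78.0 FPKM and Neurod6 at 20.8 FPKM beside C1qb at 2616 FPKM, with Cd3e and Cd3g at 0. Of 7 measured lymphocyte genes, cell 51 had 42.9% and cells 17 and 24 had 0. Their part in the Eomes value of cell 51 was not tested. Eomes (chr9:118478212-118486132, plus strand) overlaps the antisense gene Gm33460, and whether the counting used strand is not given in the sources used here.

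Insm1, a zinc finger factor of progenitors that leave the ventricular zone, was detected in cells 61 and 17 at 3.59 and 1.58 FPKM (14 and 5 fragments). Both were also Dcx and Sox11 cells. Nhlh1, a helix-loop-helix factor of early postmitotic neurons, was detected in cell 9 at 4.38 FPKM on 23 fragments. Cell 9 also held Insm1 at 0.757 FPKM (5 fragments), under the threshold. Gad1 in that cell was at 387 FPKM and Snap25 at 860 FPKM.

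**Figure D2:**
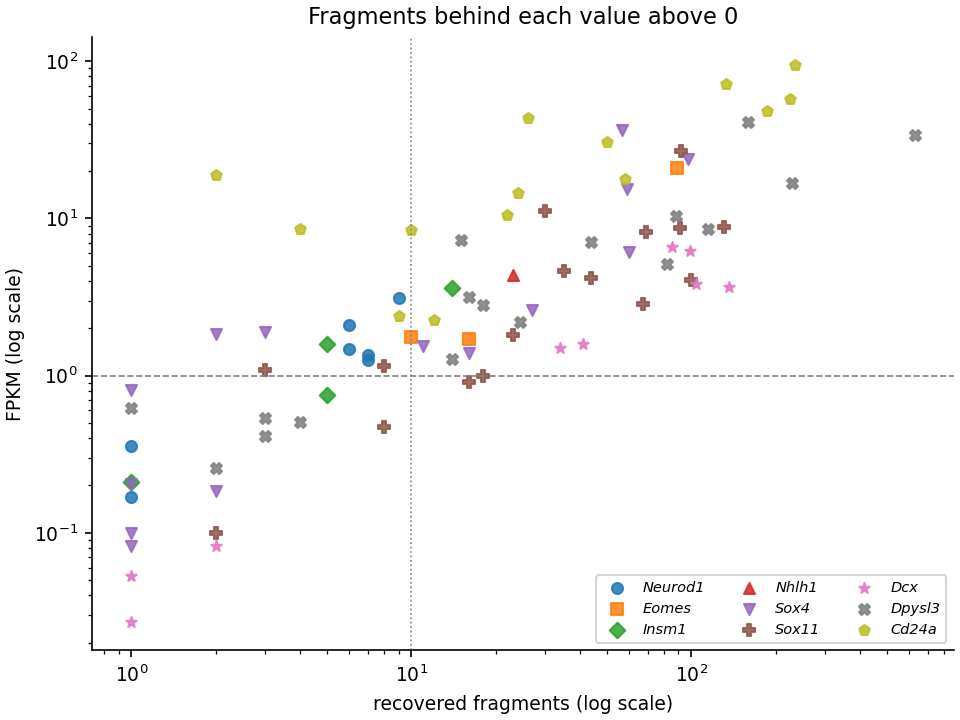
FPKM (log scale) against recovered fragments (log scale) for every value above 0 of the 9 genes, with 1 point per gene and cell, a dashed line at an FPKM of 1 and a dotted line at 10 fragments. Neurod1 stays at or below 9 fragments, while the 6 Dcx values above an FPKM of 1 rest on 34 to 136 fragments.

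Sox4 was detected in 9 cells from 1.38 FPKM (cell 52) to 36.5 FPKM (cell 3), with a median of 2.60. Cell 11 followed at 23.8 FPKM, cell 46 at 15.3 and cell 33 at 6.11, and the other 5 cells lay at or below 2.60. The values of cells 18 and 43 rest on 3 and 2 fragments. The high Sox4 cells differed in their neuronal genes. Cell 11 had the highest Snap25 level of the 59 cells, 1426 FPKM, with Neurod2 at 114 FPKM and Tbr1 at 47.7 FPKM, and cell 3 had Rbfox3 at 78.7 FPKM. Cell 46 had Snap25 at 23.8 FPKM, under the median of 136 over all cells, and 18 of the 24 mature neuronal genes. Sox4 (chr13:28948919-28953713) and Sox11 (chr12:27334264-27342574) are single-exon genes on the minus strand, so spliced RNA cannot be told from unspliced RNA or DNA in them. Sox4 also overlaps Gm26735 on the opposite strand.

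Sox11 was detected in 13 cells from 1.00 FPKM (cell 8) to 26.8 FPKM (cell 42), with a median of 4.21. Cell 3 had 11.2 FPKM, and cells 12, 61 and 17 had 8.83, 8.71 and 8.13. The values of cells 18 and 10 rest on 3 and 8 fragments, and the others on 18 to 131. Mature neuronal genes were plentiful in all of its cells: the 13 had 70.8 to 100% of the mature list (median 91.7%), against a median of 79.2% over all cells. All 13 also had at least 50% of the list of other immature structural genes, which 33 of 59 cells reached. The astrocyte list was higher in them too, with a median of 64.3% against 35.7% over all cells. Medians of the oligodendrocyte list (80.0%) and the microglia list (53.8%) equalled those over all cells. These shares take no account of genes detected, with which Sox11 had a Spearman correlation of 0.52 over the 59 cells. Cell 42 had no other gene of the set and had Slc32a1, the vesicular GABA transporter, at 20.8 FPKM, the highest of the 59 cells. Genes given here and later for single cells with Sox11, Dpysl3 or Cd24a were chosen after their values were seen.

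Dcx was detected in 6 cells, at 6.58 FPKM in cell 17, 6.22 in cell 61, 3.80 in cell 8, 3.64 in cell 13, 1.58 in cell 33 and 1.51 in cell 12. The 6 values rest on 34 to 136 fragments (median 92), and cells 15, 21 and 55 held 1 or 2 fragments each below the threshold. The gene (chrX:143855842-143933311, minus strand, 5 to 7 exons by transcript) was thus low per length but well supported. All 6 cells had 79.2 to 95.8% of the mature list, and all were among the cells with many genes, from 6168 genes in cell 61 upward. Its kinase-bearing relatives Dclk1 and Dclk2 were detected in 41 and 11 cells.

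Genes of the GABAergic lineage were found in varying numbers of the Dcx cells. Dlx1, a homeobox factor of ventral forebrain progenitors and interneurons singled out after its values were seen, was detected in 11 cells of 59 and in all 6 Dcx cells. Its level there was 39.8 FPKM in cell 61, 28.3 in cell 12, 22.0 in cell 13, 16.0 in cell 17, 9.68 in cell 33 and 5.73 in cell 8. Of 482 genes that were likewise detected in 11 cells, 4 (0.830%) were in all 6 Dcx cells and the median shared 3 of them. Those 4 were Dlx1, Myo9b, Rell2 and Sgms1, also named after their values were seen. Dlx6 was in 4 of the 6 cells, Dlx2 in 3 and Dlx5 in 2. Gad1, which 46 of all 59 cells had, was between 10.9 FPKM (cell 33) and 929 FPKM (cell 12) in the 6 cells, and the last was its highest value of the 59 cells. Cell 12 further held Gad2 at 573 FPKM, Dlx5 at 137 FPKM and Dlx2 at 29.8 FPKM, and cell 61 held Dlx6 at 37.8 FPKM and Sp9 at 16.2 FPKM, both factors of GABAergic lineages. Cell 33, the Dcx cell with Neurod1, had Slc17a6 (26.1 FPKM) above Gad1.

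Dpysl3, a collapsin response mediator protein gene of growing axons (chr18:43320984-43438286, minus strand), was detected in 12 cells from 1.27 FPKM (cell 35) to 41.0 FPKM (cell 45), with a median of 7.18. Cell 13 had 34.0 FPKM on 628 fragments, the most fragments of any value in the set. All 12 values rest on at least 14 fragments. The cell with the highest Dpysl3 level had few neuronal genes. Cell 45 had Snap25 at 0.236 FPKM and 41.7% of the mature list, with Olig1 at 1487 FPKM and Enpp6 at 102 FPKM, genes of the oligodendrocyte lineage. Cell 60 (5.16 FPKM Dpysl3) had 29.2% of the mature list and 91.7% of 12 precursor genes, including the precursor receptor gene Pdgfra at 22.1 FPKM and Gpr17 at 15.9 FPKM, with Gad1 at 0. In the other 10 Dpysl3 cells at least 50% of the mature list was detected. The precursor list had 0 to 91.7% of its genes in the 12 cells and a summed level of 0.387 to 1800 FPKM (median 170), against a median of 67.0 FPKM over all 59 cells. Its part in the Dpysl3 values was not tested. Among the relatives of Dpysl3, Dpysl2 was detected in 53 cells, Dpysl4 in 13 and Dpysl5 in 11.

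Cd24a, a small glycosylated surface protein gene (chr10:43578284-43584265, plus strand), reached the highest levels of the set. Its 14 cells ranged from 2.26 FPKM (cell 21) to 95.1 FPKM (cell 51), with a median of 18.5, and cells 17, 8 and 9 had 71.9, 57.6 and 48.4 FPKM. The value of 19.0 FPKM in cell 2 rests on 2 fragments, and those of cells 59 and 58 on 4 and 9. Ependymal genes were found in many of the same cells. At least 50% of 9 measured ependymal genes was detected in 5 cells (8, 17, 18, 50 and 51), and all 5 had Cd24a. The same 5 cells had from 4871 (cell 51) to 10310 (cell 8) genes detected. Each also had at least 50% of the oligodendrocyte, microglia and astrocyte lists. In cell 51, the cilium-linked genes Dynlrb2, Rsph1 and Ccdc153 were at 129, 85.1 and 76.3 FPKM. Leaving out Tppp3, which 47 cells had, 12 of the 14 Cd24a cells had at least 1 of the other 8 ependymal genes, and cells 2 and 22 had 0. Over all 59 cells, 34 had 0 of those 8 genes. The summed ependymal level in the 14 cells was 0 to 911 FPKM (median 112), against 0 to 1494 FPKM (median 174) over all cells. The part of ependymal RNA in the Cd24a values was not tested. Cell 21, with the lowest Cd24a level of the 14, had C1qb at 8628 FPKM, the highest of the 59 cells, and Snap25 at 1.20 FPKM.

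**Figure D3:**
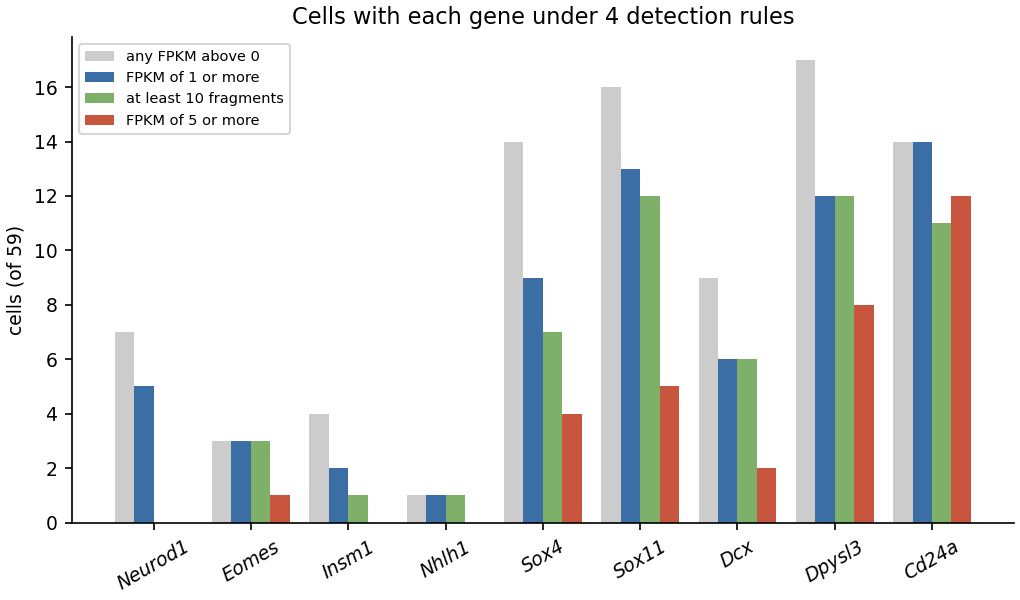
Number of cells (of 59) with each of the 9 genes under 4 rules: any FPKM above 0, FPKM of 1 or more, at least 10 recovered fragments, and FPKM of 5 or more. Neurod1 falls from 7 cells to 0 by the last 2 rules, while Cd24a keeps 12 cells at an FPKM of 5.

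Most cells with a gene of the set had only 1 of them, and a few had several. At least 1 was detected in 36 of 59 cells (61.0%, 47.4 to 73.5%) and at least 1 of the 6 transcription factors in 25 (42.4%, 29.6 to 55.9%). A sole gene of the set was found in 23 cells, 2 genes in 4 cells, 3 genes in 5, 4 genes in 2, 5 genes in cell 8 and 6 genes in cell 17, and 23 cells had 0. At least 3 genes were found together in 9 cells (15.3%, 7.22 to 27.0%), which were cells 8, 9, 12, 13, 17, 18, 33, 51 and 61. Cell 17 combined Dcx, Sox11, Eomes, Insm1, Cd24a and Dpysl3, and cell 8 combined Dcx, Sox4, Sox11, Cd24a and Dpysl3. Cells 12 and 18 shared Sox11, Cd24a and Dpysl3, with Dcx in cell 12 and Sox4 in cell 18.

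The number of these genes in a cell went with how many genes the cell showed. The 9 cells with at least 3 had 4871 to 10310 genes detected (median 7250), the 36 cells with at least 1 a median of 5053.5, and the 23 cells with 0 had 475 to 4784 (median 2065). Spearman's correlation over the 59 cells was 0.73 with genes detected and 0.45 with recovered fragments. These cells share 1 sample, and the correlations are given as a description. Among the 39 cells with at least 500000 fragments, 30 had at least 1 gene of the set. The part of depth in the joint counts was not tested beyond these values.

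Of the 36 pairs of the 9 genes, 13 were never found in the same cell, 8 shared 1 cell and 15 shared at least 2. For comparison, the product of the 2 shares of cells gives the joint count that 2 genes spread without regard to each other would have, which takes no account of depth. In 22 pairs the joint count was above that product, and in 21 pairs when only the 39 deeper cells were used. Those 39 were chosen by fragments and still differed in genes detected, with 519 in cell 53 and 10310 in cell 8. The cut therefore does not hold genes detected constant, and no such share was computed over pairs of all genes. Dcx and Sox11 shared 5 cells (8, 12, 13, 17 and 61) against a product of 1.32, and 5 against 1.54 in the deeper cells. In the remaining Dcx cell, 33, Sox11 was at 0.470 FPKM on 8 fragments. Dcx and Dpysl3 shared 4 cells (product 1.22), and both Insm1 cells had Dcx (product 0.203). Cd24a and Dpysl3 shared 6 cells (product 2.85), Sox11 and Cd24a 5 (product 3.08), and Sox11 and Dpysl3 5 (product 2.64).

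The pairs with Neurod1 and Sox4 were mixed. Neurod1 shared 1 cell with Dcx (cell 33) and 2 with Sox4 (cells 33 and 55), and 0 with Sox11, Eomes, Insm1, Nhlh1, Cd24a and Dpysl3, for which the products were 0.0847 to 1.19. With products this small, 0 shared cells is not distinguishable from a low joint count. Sox4 and Sox11, the SoxC pair printed above with the same E-box, shared 3 cells (3, 8 and 18; product 1.98) and 1 cell among the deeper cells (product 1.54). Sox4 shared 2 cells with Dcx (product 0.915), 3 with Dpysl3 (product 1.83) and 2 with Cd24a (product 2.14), so its joint counts lay on both sides of the product.

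Genes of young and of mature neurons occurred side by side. In 45 of 59 cells (76.3%) at least 50% of the 24 mature genes was detected, and 31 cells (52.5%, 39.1 to 65.7%) combined this with at least 1 gene of the set. These 31 were among 36 cells with a gene of the set, and 14 of the 23 cells with 0 reached the same share. The 36 cells had more genes detected than the 23 (median 5053.5 against 2065), and the counts take no account of this. The 9 cells with at least 3 of the genes all reached 50% of the mature list, with 79.2 to 100% of it. The 5 cells with a gene of the set and less than 50% of the mature list were cells 21 and 34 (Cd24a), 25 (Neurod1), and 45 and 60 (Dpysl3), so each had a sole gene of the set. In the mature list Vamp2 (56 cells), Snap25 (54) and Uchl1 (52) were the most often detected, and the glutamate transporter genes Slc17a6 (11) and Slc17a7 (20) the least. The number of genes of the set per cell had a Spearman correlation of 0.60 with the detected share of the mature list, and of 0.21 once the number of genes detected was held constant.

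**Figure D4:**
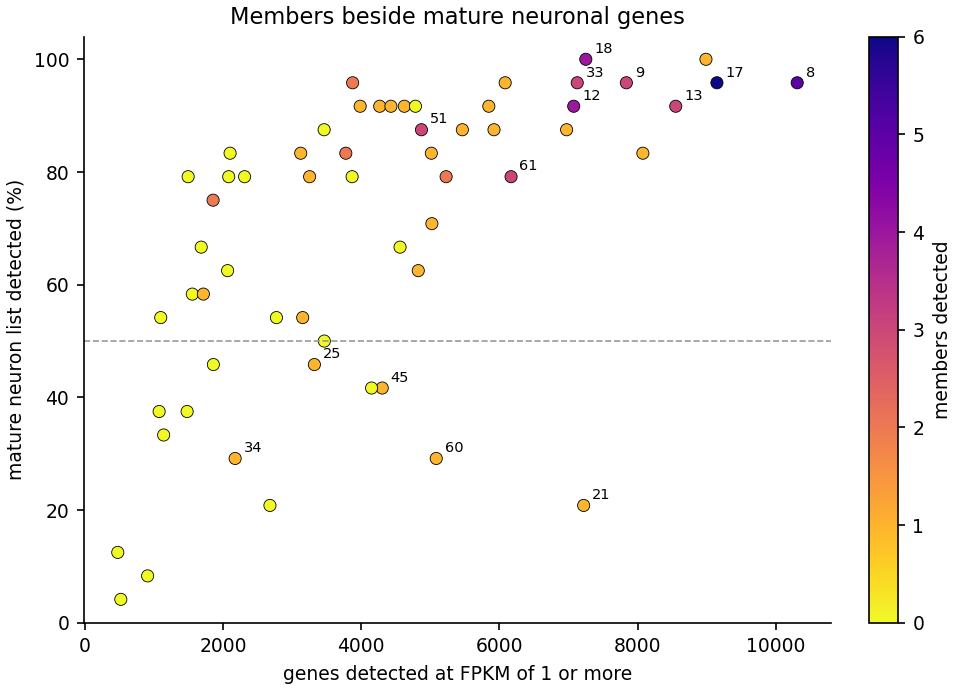
Share of the 24 mature neuronal genes detected (%) against genes detected per cell at an FPKM of 1 or more, with 1 point per cell coloured by how many of the 9 genes it had, and a dashed line at 50%. Labelled are the 9 cells with at least 3 of the genes, which lie at or above 79.2%, and the 5 cells with 1 gene below the line.

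Glial genes were also present in most of these cells. At least 50% of the oligodendrocyte list was detected in 46 of 59 cells, of the microglia list in 32 and of the astrocyte list in 21. The myelin gene Mbp was detected in 55 cells, the microglial gene C1qb in 42 and the astrocytic gene S100b in 47. Only cells 2, 7 and 61 had a gene of the set, at least 50% of the mature list and under 50% of each glial list. Single glial genes were still high in cells 7 and 2: Mbp was at 2285 FPKM and Gfap at 402 FPKM in cell 7, and C1qb at 491 FPKM in cell 2. Cell 2 also had only 58070 recovered fragments, 2 of them from Cd24a. Cell 61, with Dcx, Sox11 and Insm1, had 3 of the 10 oligodendrocyte genes, 15.4% of the microglia list, 14.3% of the astrocyte list and 0 of the precursor list, and C1qb, Gfap, Aqp4 and Mog were at 0. Mbp was at 83.7 FPKM in that cell, and its oligodendrocyte list summed to 168 FPKM, against a median of 2550 over all cells. In cell 12, Dcx and Sox11 occurred with C1qb, Gfap and Aqp4 at 0 and Mbp at 39.5 FPKM. Other glial genes were present there, with 60.0% of the oligodendrocyte list, 23.1% of the microglia list and 21.4% of the astrocyte list.

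**Figure D5:**
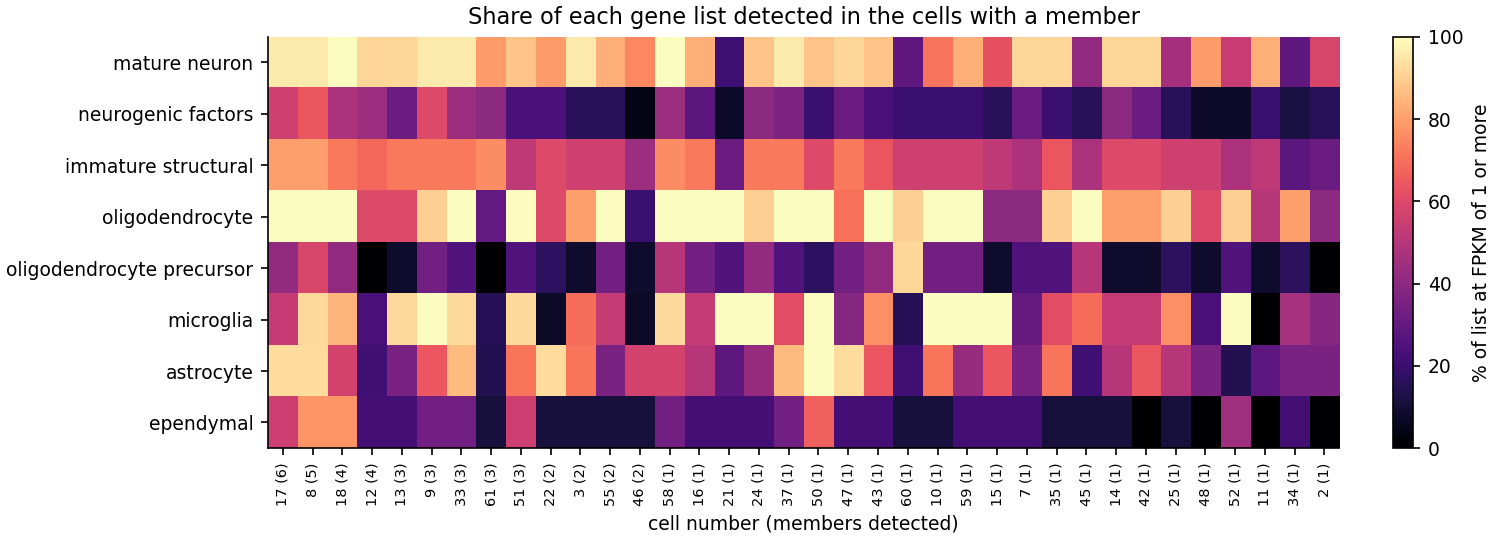
Share of each gene list detected (%), as colour, in the 36 cells with at least 1 of the 9 genes, ordered by how many they had (in brackets after the cell number). Mature neuronal genes are frequent across most cells, oligodendrocyte and microglial genes also, while cell 60 stands out with 91.7% of the oligodendrocyte precursor list.

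Other genes of the same programmes divided by role. Of 25 measured factors of the neurogenic cascade, 3 reached at least 50% of cells: Myt1l, a neuronal zinc finger factor that stays on in neurons (46 cells), the growth-arrest gene Gadd45g (34) and the RNA-binding protein gene Elavl2 (32). A further 8 were in at least 12 cells, namely St18 (22), Prox1 (21), Hes6 (19), Tbr1 (18), Cbfa2t2 (16), Neurod6 (14), Dlx6 (12) and Neurod2 (12). At the low end were Nhlh2 (1 cell) and the Notch ligand gene Dll3 and Mex3b (3 cells each). The median was 15.3% of cells, against 11.9% for all genes. In all, 11 of the 25 (the 3 and the 8) were in at least 12 cells, to be read against the 38.9% of all genes.

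Structural genes of young neurons were common instead. Of 25 measured, 14 reached 50% of cells or more, and the median gene was in 66.1%, against 11.9% for all genes. In at least 12 cells were 18 of the 25, against 38.9% of all genes. The tubulin gene Tuba1a was in 55 cells, Dpysl2 and the tubulin-binding stathmin gene Stmn1 in 53 each, while Islr2 was in 1 and Igfbpl1 in 0 (0 of 59 cells). These genes were not limited to cells rich in neuronal genes. Tuba1a was highest in cell 60, Dpysl2 in cell 4 and Stmn1 in cell 41, which had 29.2%, 37.5% and 8.33% of the mature list. Genes of neural progenitors and of the cell cycle had a median of 11.9% over 19 genes. Pcna, a replication and repair factor, was in 30 cells, and the glial-shared genes Id3 and Sox9 were in 23 each. Cdk1, needed for mitosis, was in 1 cell, and Mki67, Nes and Sox3 were in 2 each. In cell 22, which had Sox11 and Cd24a, 73.7% of the progenitor list was detected together with 92.9% of the astrocyte list.

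The cascade factors shared cells with the genes of the set more often than the product in most pairs, and the product takes no account of depth. Of the 225 pairs of 1 of the 25 factors and 1 of the 9 genes, 163 had a joint count above the product, 62 did not, and 45 were never found together. By gene, 23 of the 25 factors were above the product with Cd24a, 21 with Sox11, 21 with Dpysl3, 20 with Dcx, 17 with Sox4 and 14 with Neurod1. Gadd45g was in all 14 Cd24a cells (product 8.07), Myt1l in all 13 Sox11 cells (product 10.1), and Dlx6 shared 7 of its 12 cells with Sox11 (product 2.64). Prox1, a factor of granule neurons and some interneurons, was in 5 of the 6 Dcx cells (product 2.14). Neurod2 lay on the other side, with 2 cells shared with Sox11 (product 2.64) and 2 with Cd24a (product 2.85). Nothing particular to the 9 genes is read from these counts.

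Levels over all 59 cells were compared for the 3 genes detected in at least 12 cells, with Spearman's correlation on log2(FPKM + 1) as a description. Sox11 had 0.55 with the mean level of the mature list and 0.60 with that of the immature structural list, and 0.38 and 0.36 with the number of genes detected held constant. Its correlation with the oligodendrocyte list was -0.09, and -0.25 with genes detected held constant. With the immature structural list, Cd24a had 0.10, which became -0.43, and Dpysl3 had 0.40, which became 0.02. Sox11 had 0.22 with Cd24a and 0.22 with Dpysl3, which became -0.02 and -0.07. Cd24a and Dpysl3 had 0.48, and 0.32 with genes detected held constant. Cd24a had 0.22 with the mature list (-0.03 with genes detected held constant) and 0.40 with the ependymal list (0.19). Its values were similar for the cascade factors at 0.415 (0.12), the progenitor list at 0.39 (0.16) and the astrocyte list at 0.35 (0.16). They were lower for the precursor list at 0.22 (-0.03), the microglia list at 0.21 (-0.01) and the oligodendrocyte list at 0.01 (-0.11). Dpysl3 had 0.33 with the mature list (0.08) and 0.29 with the precursor list (0.01). Of the 3, Sox11 had the largest of these values for the mature list under both measures.

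The genes most like each were then read out of the 8041 others detected in at least 12 cells. For Sox11 they were Fbxo18 (0.74), Syt13 (0.69) and Sdr39u1 (0.69), where the median gene had 0.27 and the upper 1% began at 0.56. For Cd24a they were Ddx49 (0.71), Otud1 (0.66) and Trap1 (0.64), with a median of 0.21. For Dpysl3 they were Psd2 (0.70), Wtap (0.68) and Cstf1 (0.67), with a median of 0.25. Among these 8041 genes Dpysl3 ranked 112 for Cd24a, while Cd24a ranked 4942 for Sox11. The nearest genes changed with the setting: 1 or 2 of the 3 were kept when the filter on low values was dropped or when only cells with at least 2000 genes were used.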

How the data were processed

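Per the labels' protocol, the content of 59 single mouse cells was drawn by patch pipette in the living brain and sequenced on an Illumina HiSeq instrument. The authors deposited FPKM per gene and cell, and the submitters' processing notes name STAR 2.5.3a, featureCounts 1.5.3 and the build GRCm38. In the sources used here, the annotation, the use of strand and the handling of multi-mapped reads are not given. Spike-ins (51 features) were left out, which left 20689 genes.

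Fragments were recovered from the FPKM and the exon lengths of GENCODE M21: within a cell, FPKM times exon length is a multiple of what 1 fragment is worth. Up to 20 fragments, a median of 73.1% of values (63.8 to 77.8%) came out whole within 0.02 fragments, so values were kept as FPKM, no count model was used, and fragment numbers are approximate. The spacing of the values of Cd24a and Dpysl3 implied exon lengths of 1813 and 6265 bases, where GENCODE M21 has 2580 and 6608, and their fragments were computed with the implied lengths. Sox4 in cell 3 and Dpysl3 in cell 12 came out at 56.5 and 24.5 fragments.

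A gene was detected at an FPKM of 1 or more. Log values are log2(FPKM + 1), on which differences of low genes are understated. The labels give 1 group and no animals, so no test was run and no p-value computed. A list is reached in a cell when at least 50% of its measured genes are detected. Of 217 genes in 17 lists, 194 were measured. The list of endothelial and mural cells (9 genes, median detection 3.39% of cells) was described only for cell 9. Lists not described in the report were those of Cajal-Retzius cells (5 genes, 5.08%) and of other organs (4 genes, 4.24%). That of genes used by all cells (10 genes, 95.8%) was not described either. The 9 genes and the lists were chosen with earlier results of these data known.

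Genes were named by rule: the 9 genes, those most and least detected in each list, the cascade factors in at least 12 cells, the 3 nearest genes by Spearman's correlation, and lineage markers in cells with a gene found in under 12 cells. The other genes named, among them Dlx1, Dlx2, and those given for single cells with Sox11, Dpysl3 or Cd24a, were chosen after their values were seen. Some genes that meet this rule are not reported here. Alternatives were other detection thresholds, rescaling to a sum of 1000000, cells with at least 2000 genes, a pseudocount of 0.1, partial correlation, list shares of 25% and 75%, and no filter on low values. Tested on simulated data, the depth came within 1% for 59 of 59 cells (19358 genes). In a second simulation, 200 of 200 genes made correlated were among the 200 highest (8042 genes). Those 200 were noisy copies of Sox11, and the other genes were shuffled over cells, which removes the depth they share. It checks the ranking step only, and cannot show how reliable the nearest genes are. Promoter windows are from RefSeq. Python 3.11.15, pandas 2.3.3, NumPy 2.4.6, SciPy 1.17.1 and matplotlib 3.10.9 were used.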

Additional observations from a re-analysis of the deposited data

How the results depend on the processing

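The threshold for detection had the largest effect. At an FPKM of 5, detection was 0% of cells for Neurod1, Insm1 and Nhlh1, 3.39% for Dcx, 6.78% for Sox4 and 8.47% for Sox11. At that threshold at least 1 of the 9 genes was found in 37.3% of cells, at least 1 of the transcription factors in 13.6%, at least 3 genes in 1.69%, and a gene of the set with at least 50% of the mature list in 30.5%. With at least 10 recovered fragments Neurod1 was at 0% of cells. At least 1 of the genes was found in 73.9% of the 46 cells with at least 2000 genes and in 76.9% of the 39 cells with at least 500000 fragments. Of 95 alternative values for 16 results, the other 82 stayed inside the exact 95% interval of the reported share, for which the 3 list medians were given the interval of a share of the same size in 59 cells. Those medians ranged from 8.47 to 22.0% of cells for the cascade factors, from 55.9 to 76.1% for the immature structural genes and from 6.78 to 22.0% for the progenitor genes. Of 90 alternative values for 30 correlations, 34 moved by more than 1 standard error. Of these, 29 were with the number of genes detected held constant and 5 in the cells with at least 2000 genes. Sign changes were counted over all 30 correlations, moved or not. There were 12 with genes detected held constant and 7 in the cells with at least 2000 genes. A pseudocount of 0.1 changed 0 signs. The alternatives of 500000 fragments per cell, and of 10 fragments applied to joint counts, were chosen after seeing the data. The number of fragments limits what a 0 means for the shorter transcripts, and no replicate could be left out because all cells form 1 sample.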
